A study of Mus musculus with 10 samples.

Results

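Chromatin modifiers and remodelers are the enzymes and complex subunits that write, erase and read marks on histones and DNA or that move nucleosomes. The genes described here were protein-coding genes picked by the start of their symbol in the mouse GRCm38 annotation. For histones these were Kdm (lysine demethylases), Kmt2, Kmt5 or Setd (methyltransferases and SET-domain relatives) and Hdac (deacetylases). For DNA they were Dnmt or Tet (DNA methyltransferases and the dioxygenases that oxidise methylcytosine). The others were Chd, Smarc or Arid (ATP-dependent remodelers, their subunits and relatives, and other ARID proteins). The rule used symbols alone and no measured value, and it found 85 genes among the 54838 genes in the count tables. Of these, 79 passed the filter on low counts (CPM, the counts of a gene scaled to a common library total, above 1 in at least 2 libraries) and were tested.

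The libraries came from translating ribosome affinity purification (TRAP), in which ribosomes carrying an EGFP-tagged L10a protein are pulled down with the RNA they hold. All 10 libraries came from C57BL/6 mice of genotype Drd2-Cre;Eef1a1LSL.eGFPL10a/+, about 10 weeks old, in which the Drd2-Cre driver switches on the tag in mossy cells, the excitatory neurons of the dentate hilus. The 5 dorsal libraries were made from the dorsal part of the hippocampus and the 5 ventral libraries from the remaining ventral part, after the ventral subiculum had been cut away, and tissue of 5 mice was pooled for each. Each hippocampus was divided into both parts, so dorsal and ventral libraries drew on the same set of mice. The labels name no treatment, and no untagged control library was used here. The tag is also carried by GABAergic interneurons, which the paper calls sparse in its results and a substantial subset in its limitations. Levels are therefore those of RNA recovered with tagged ribosomes rather than of mossy cells alone. In such bulk RNA, fewer cells of a type and less RNA per cell cannot be told apart.

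Counts on genes ranged from 11138676 to 20594364 per library, and the genes described here took 7050 to 8490 CPM of them in sum. The share of read pairs on no annotated gene was 21.8 to 33.9% in dorsal and 11.6 to 19.3% in ventral libraries (27.0 ± 5.09% against 14.4 ± 3.0%, SD, n = 5 each; two-sided exact permutation p = 0.00794, the smallest this design can give). Of 10 markers each, 6 astrocyte and 5 oligodendrocyte markers were called higher in dorsal libraries and 3 GABAergic interneuron markers higher in ventral ones. The astrocyte marker Aldh1l1 was called the other way, higher in ventral libraries (log2 fold change -1.72, adjusted p = 0.0164), and Aldoc passed the adjusted p in that direction (-0.56, adjusted p = 0.00532). The summed astrocyte markers ran from 2000 to 2280 CPM in dorsal and from 865 to 1470 CPM in the ventral libraries, the summed oligodendrocyte markers from 2670 to 3190 and from 1030 to 1960 CPM, and the summed interneuron markers from 3580 to 4600 and from 4410 to 5620 CPM. Of the interneuron markers, 7 passed the adjusted p in the ventral direction and 0 in the dorsal one. Gad2, the most abundant of them, was at 2850 ± 452 CPM in dorsal and 3170 ± 406 CPM in the ventral libraries. No marker of these lists was at 0 in all libraries, and their part in the results below was not tested. The 10 mossy cell markers summed to 2220 to 2370 CPM in dorsal and 2140 to 2420 CPM in the ventral libraries, and they went both ways. Slc17a7 among them was at 212 ± 46.0 and 175 ± 28.7 CPM (adjusted p = 0.176). Gria2 (log2 fold change 0.81), Gria3 (0.70) and Sv2c (1.48) were called higher in dorsal libraries, and Satb1 (-0.74) and Calb2 in ventral ones. Calb2 (calretinin) was at 65.0 ± 9.30 CPM in the dorsal and 615 ± 94.4 CPM in the ventral group (adjusted p = 1.06e-08), and Drd2 itself at 28.1 ± 3.95 and 20.7 ± 4.36 CPM (adjusted p = 0.0517).

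Histone acetylation, removed by the deacetylases, generally accompanies open chromatin, whereas methylation of histone lysines can mark active or silent genes depending on the residue and is set and removed by separate enzyme families. Methylcytosine is placed by the Dnmt enzymes and oxidised to hydroxymethylcytosine, a base abundant in neurons, by the Tet enzymes. The CHD, SWI/SNF and ISWI remodelers use ATP to slide or evict nucleosomes, and some ARID proteins are subunits that guide such complexes to DNA. Mutations in many of these genes cause disorders of brain development in people.

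Promoters of the Tet genes and Hdac9 are shown, since Tet2 and Hdac9 had the smallest adjusted p in each direction, to give the range of CpG content, CpG being the dinucleotide that Dnmt enzymes methylate. Each line gives the 250 bases before a RefSeq transcription start of the assembly GRCm38.p6, 5′ to 3′ on the strand of the gene, with every CpG in capitals. Shown are all windows of the Tet genes and Hdac9 in the table that hold no annotated exonic base of their gene, which leaves out Tet1.
Tet2 (chr3:133544391-133544640, minus strand): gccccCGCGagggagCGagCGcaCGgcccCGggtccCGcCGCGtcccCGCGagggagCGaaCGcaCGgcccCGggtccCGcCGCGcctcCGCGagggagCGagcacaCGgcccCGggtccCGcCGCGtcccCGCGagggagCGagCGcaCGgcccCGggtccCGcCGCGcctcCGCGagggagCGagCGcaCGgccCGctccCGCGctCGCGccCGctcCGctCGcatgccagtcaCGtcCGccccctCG
Tet3 (chr6:83441679-83441928, minus strand): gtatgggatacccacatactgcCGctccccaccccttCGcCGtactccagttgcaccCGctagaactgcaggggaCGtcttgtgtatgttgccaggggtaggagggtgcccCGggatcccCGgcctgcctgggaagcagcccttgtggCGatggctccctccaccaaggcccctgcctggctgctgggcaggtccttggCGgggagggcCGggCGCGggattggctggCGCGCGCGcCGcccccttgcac
Hdac9 (chr12:34917096-34917345, minus strand): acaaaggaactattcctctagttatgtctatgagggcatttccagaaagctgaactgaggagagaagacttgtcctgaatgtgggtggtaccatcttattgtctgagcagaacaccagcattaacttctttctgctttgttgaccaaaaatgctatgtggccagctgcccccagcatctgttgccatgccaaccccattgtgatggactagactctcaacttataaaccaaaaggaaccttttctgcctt
Hdac9 (chr12:34528890-34529139, minus strand): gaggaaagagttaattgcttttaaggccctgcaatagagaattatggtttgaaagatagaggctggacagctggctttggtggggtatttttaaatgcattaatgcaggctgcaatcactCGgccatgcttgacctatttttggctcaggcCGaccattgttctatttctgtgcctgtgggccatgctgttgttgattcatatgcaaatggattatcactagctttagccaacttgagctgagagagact
The Tet2 window held 51 CpGs and the Tet3 window 17. The windows of the upstream and the downstream start of Hdac9 held 0 and 2. Both Tet windows lie inside the annotated span of their gene (83362373-83459084 for Tet3), so neither precedes its most upstream annotated start. Over all 32851 windows in the table the median was 6 CpGs, and over the 91 windows of the 65 genes of the group that the table holds it was 20. The median was 21.5 CpGs over the 8 windows of 6 genes called in the dorsal direction. It was also 21.5 over the 8 windows of 5 genes called in the ventral direction. Chd7 has no window and some windows of one gene overlap, so nothing is read from these medians. A GC box (GGGCGG on either strand) was present in 65.9% of the group's windows and in 32.7% of all windows. It was present in 8 of the 8 windows of genes called in the dorsal direction and in 5 of the 8 of the ventral ones. These are descriptions of the annotated sequence, and binding or methylation was not measured. The windows of the whole table were not limited to protein-coding or tested genes, so they are no matched background for the group.

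Calls needed both an adjusted p under 0.05 (edgeR's quasi-likelihood test, Benjamini-Hochberg over all tested genes) and a log2 ratio of mean CPM plus 1 beyond 0.58 in either direction. Among the 79 tested genes, 7 (8.86%) were called higher in dorsal libraries, namely Tet1, Tet2, Tet3, Kmt2a, Kmt2d, Kmt5a and Chd7. Of all tested genes 15.7% were called in that direction, and of the protein-coding ones 11.4%. In the other direction 5 (6.33%) were called, namely Hdac9, Setd3, Kdm1a, Chd5 and Smarcd1, beside 9.85% of all tested and 10.3% of protein-coding genes. Both shares were under those of the background, and nothing is read from them about the group. By adjusted p alone, 19 genes (24.1%) were higher in dorsal libraries and 10 (12.7%) in ventral ones, against 15.4% and 16.1% of protein-coding genes. In 12 genes (15.2%) every dorsal library lay above every ventral one and in 7 (8.86%) every ventral library lay above every dorsal one, where 8.5% and 9.58% of protein-coding genes did so. The median standard error (SE) of the log2 fold change was 0.158 over the 79 genes and 0.212 over the protein-coding genes. Smaller differences could thus pass in the group, and these shares were not compared by a test. The median log2 fold change (dorsal over ventral) of the 79 genes was 0.123, with 49 above 0. Over the protein-coding genes it was -0.0409, with 46.7% above 0.

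**Figure D1:**
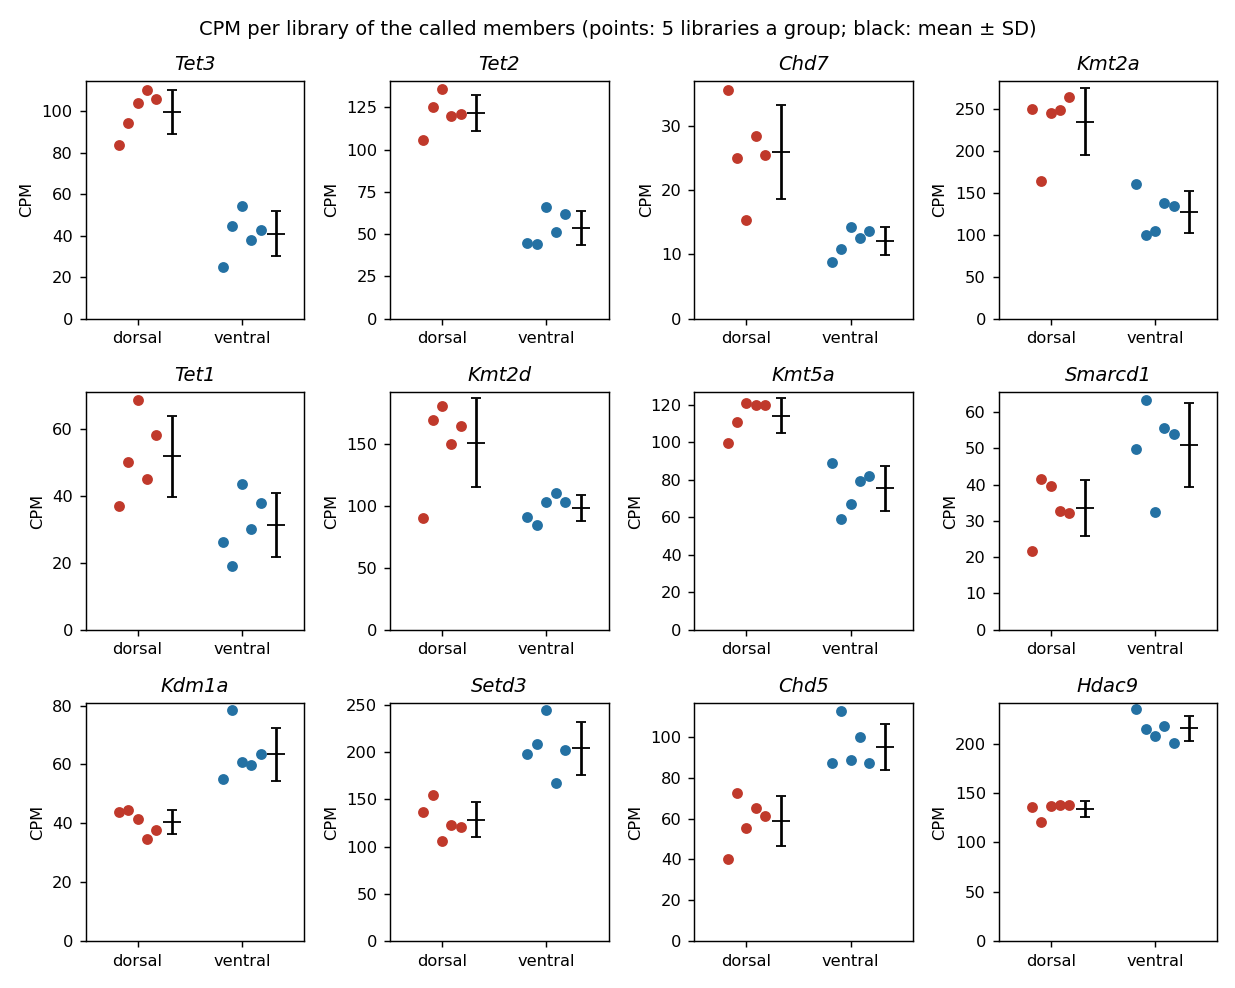
CPM (vertical axes, from 0) of the 12 called genes in each of the 5 dorsal (red) and 5 ventral (blue) libraries, with the mean ± SD in black. The groups do not overlap for Tet2, Tet3, Chd7, Kmt2a, Kmt5a, Hdac9, Setd3, Kdm1a and Chd5, and they overlap for Tet1, Kmt2d and Smarcd1.

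The 3 Tet dioxygenases were all called higher in dorsal libraries, although Tet1 turned to -0.12 (adjusted p = 0.861) with the share of read pairs on no annotated gene as a covariate. Tet2 (ENSMUSG00000040943) lies on chromosome 3 of GRCm38 at 133463679-133545139. Its level was 106, 125, 136, 120 and 121 CPM in dorsal libraries 1 to 5 and 44.5, 43.9, 66.2, 51.2 and 62.1 CPM in the ventral ones. The highest ventral library thus stayed well under the lowest dorsal one, and the log2 fold change was 1.18 ± 0.133 (SE; 2.27-fold, adjusted p = 5.6e-05). Tet3 was at 83.7, 94.5, 104, 110 and 106 CPM in dorsal and at 24.9, 44.7, 54.4, 38.1 and 42.5 CPM in the ventral libraries. It had the largest called difference of the group, again without overlap, at a log2 fold change of 1.30 ± 0.167 (2.47-fold, adjusted p = 0.000138). Tet1, the founding member of the family, was at 37.1, 50.3, 68.6, 45.2 and 58.3 CPM in dorsal and at 26.3, 19.2, 43.6, 30.1 and 37.8 CPM in the ventral libraries. Here the highest ventral libraries reached into the dorsal range, and the log2 fold change of 0.72 ± 0.207 had an adjusted p of 0.0164. Without ventral library 2 it was 0.61 (adjusted p = 0.0288) and the gene was not called.

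The DNA methyltransferases gave other values. Dnmt1, which copies methylation after replication, ran from 15.7 to 27.0 CPM in dorsal and from 27.9 to 35.1 CPM in the ventral libraries, without overlap, at a log2 fold change of -0.47 ± 0.158 (adjusted p = 0.0326), which is under the fold threshold. Dnmt3a, the de novo enzyme of postnatal neurons, was at 50.2 ± 4.81 and 46.7 ± 10.7 CPM (adjusted p = 0.702). Dnmt3b, Dnmt3c and Dnmt3l did not pass the filter on low counts. Dnmt3l was called in the ventral direction when no filter was set and when protein-coding genes were fitted alone. It was at 0 to 0.0599 CPM in dorsal and 0 to 1.77 CPM in ventral libraries. It could thus pass a filter only through the ventral group, and nothing is read from those calls. Within a library, the ratio of Tet3 to Dnmt1 CPM ran from 3.21 to 6.02 in dorsal and from 0.895 to 1.72 in ventral libraries. That of Tet2 to Dnmt1 ran from 4.06 to 7.99 and from 1.32 to 2.10, both without overlap. These pairs were chosen after their values were seen, and the ratios are given with no test. Tet2, Tet3 and Dnmt1 each lay apart between the groups, Dnmt1 in the opposite direction. The ratios could therefore not overlap, and they add nothing to the values of the single genes.

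Among the histone methyltransferases, the 5 genes of the Kmt2 family, which methylate lysine 4 of histone H3 or resemble enzymes that do, all had a log2 fold change above 0. Kmt2a (Mll1; chromosome 9, 44803355-44881296) was at 251, 165, 246, 249 and 265 CPM in dorsal and at 161, 100, 105, 138 and 134 CPM in the ventral libraries. Dorsal library 2 lay far under the other dorsal ones and close to the highest ventral one, yet the groups did not overlap, and the log2 fold change was 0.87 ± 0.152 (1.83-fold, adjusted p = 0.000997). Kmt2d (Mll4), a monomethyltransferase of enhancers, was at 90.5, 170, 181, 150 and 165 CPM in dorsal and at 91.3, 85.1, 103, 111 and 103 CPM in the ventral libraries. Dorsal library 1 fell inside the ventral range, and the log2 fold change was 0.62 ± 0.159 (adjusted p = 0.00948). The call was lost, at 0.55 to 0.58, without dorsal library 2 or 3 or ventral library 2. Kmt2e passed the adjusted p at 0.33 ± 0.0998 (adjusted p = 0.0217) without reaching the fold threshold, whereas Kmt2c (0.36 ± 0.172, adjusted p = 0.115) and Kmt2b (0.16 ± 0.219, adjusted p = 0.605) did not pass. The summed Kmt2 level was 834 to 990 CPM in dorsal and 578 to 706 CPM in the ventral libraries.

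Kmt5a, which monomethylates lysine 20 of histone H4, was at 99.4, 111, 121, 120 and 120 CPM in dorsal and at 88.8, 59.3, 67.3, 79.4 and 82.2 CPM in the ventral libraries. The groups stood apart, with a log2 fold change of 0.59 ± 0.122 (adjusted p = 0.00287) that only just reached the fold threshold and fell to 0.52 to 0.58, under it on the CPM ratio, without dorsal library 3 or 4 or ventral library 2 or 3. Setd3, an actin histidine methyltransferase despite its name, moved the other way. It was at 137, 155, 106, 123 and 121 CPM in dorsal and at 198, 209, 245, 167 and 202 CPM in the ventral libraries, without overlap (log2 fold change -0.67 ± 0.125, adjusted p = 0.00161). Setd7, a lysine methyltransferase with many protein substrates and the highest level of its class per kilobase of exonic length (76.4 CPM per kb), was at 808 ± 69.0 CPM in dorsal and 843 ± 112 CPM in the ventral libraries (adjusted p = 0.67).

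Of the 16 tested histone demethylases 12 had a log2 fold change above 0, but only 2 of these passed the adjusted p, and 1 demethylase was called by edgeR, in the ventral direction. That was Kdm1a (Lsd1), the flavin-dependent demethylase of lysine 4 of histone H3. It was at 43.8, 44.4, 41.4, 34.7 and 37.8 CPM in dorsal and 54.9, 78.6, 60.8, 59.7 and 63.4 CPM in the ventral libraries. Every ventral library lay above every dorsal one, and the log2 fold change was -0.65 ± 0.129 (adjusted p = 0.00237), or -0.57 (adjusted p = 0.0039) and not called without ventral library 2. Kmt2a and Kdm1a act on the same residue in opposite senses. The ratio of their CPM within a library ran from 3.73 to 7.17 in dorsal and from 1.28 to 2.93 in ventral libraries. This pair too was chosen after the values were seen and is given with no test. Both genes lay apart between the groups in opposite directions, so their ratio could not overlap. Of the other demethylases of this residue, named after their values were seen, some passed the adjusted p in opposite directions under the fold threshold. These were Kdm5a with 108 to 135 CPM in dorsal and 63.3 to 94.1 CPM in the ventral libraries (0.56 ± 0.121, adjusted p = 0.00366). DESeq2, and edgeR with its size factors or upper-quartile factors, did call Kdm5a in the dorsal direction. The other was Kdm5c with 17.4 to 21.6 and 17.5 to 32.7 CPM (-0.58 ± 0.17, adjusted p = 0.0188). Kdm5b (-0.02, adjusted p = 0.953), Kdm5d (0.44, adjusted p = 0.224) and Kdm1b (0.06, adjusted p = 0.91) did not pass. Kdm6b, a demethylase of lysine 27 of histone H3 that is induced by activity in neurons, had the highest level of the whole group per kilobase of exonic length (134 CPM per kb). Its 1010 ± 154 CPM in dorsal and 851 ± 220 CPM in the ventral libraries did not pass the test (log2 fold change 0.24 ± 0.168, adjusted p = 0.286).

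The deacetylases were the class with the lowest median log2 fold change (-0.23, 11 tested, 9 under 0). In the dorsal direction none passed edgeR's adjusted p or an unadjusted p under 0.05, and DESeq2 called none there, whereas 4 passed the adjusted p in the ventral one, Hdac9, Hdac1, Hdac4 and Hdac11. Hdac9, a class IIa deacetylase that binds MEF2 factors, lies on chromosome 12 at 34047580-34917095 and spans 870 kb, the longest of the group. It was at 136, 120, 137, 138 and 138 CPM in dorsal and at 235, 215, 208, 218 and 201 CPM in the ventral libraries. The dorsal libraries were tightly grouped apart from library 2 and all lay far under the ventral ones (log2 fold change -0.69 ± 0.0902, 1.61-fold higher in ventral libraries, adjusted p = 0.000156). The other class IIa genes Hdac4 (-0.36 ± 0.119, adjusted p = 0.0296), Hdac5 (-0.39 ± 0.273, adjusted p = 0.285) and Hdac7 (-0.23 ± 0.275, adjusted p = 0.549) had values of the same sign. Of these Hdac4 alone passed the adjusted p, and 22.4% of its exonic bases are shared with another annotated gene. Hdac5 was at 9.48 CPM in dorsal library 1, where the other dorsal libraries were at 32.6 to 48.4 CPM. The summed class IIa level was 203 to 250 CPM in dorsal and 322 to 358 CPM in the ventral libraries. Hdac9 alone was at 134 ± 7.64 and 215 ± 12.8 CPM, so these sums mostly restate that gene. In class I, Hdac1 was at 20.1 ± 1.15 and 27.4 ± 3.40 CPM (adjusted p = 0.0203). Hdac2, the most abundant deacetylase per kilobase (79.1 CPM per kb), was at 354 ± 59.5 and 354 ± 54.7 CPM (log2 fold change 0 ± 0.129, adjusted p = 0.988). Hdac11 ran from 38.2 to 59.0 CPM in dorsal and from 44.7 to 87.4 CPM in the ventral libraries (-0.51 ± 0.169, adjusted p = 0.0334). Its groups overlapped, and 17.9% of its exonic bases are shared with other annotated genes.

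**Figure D2:**
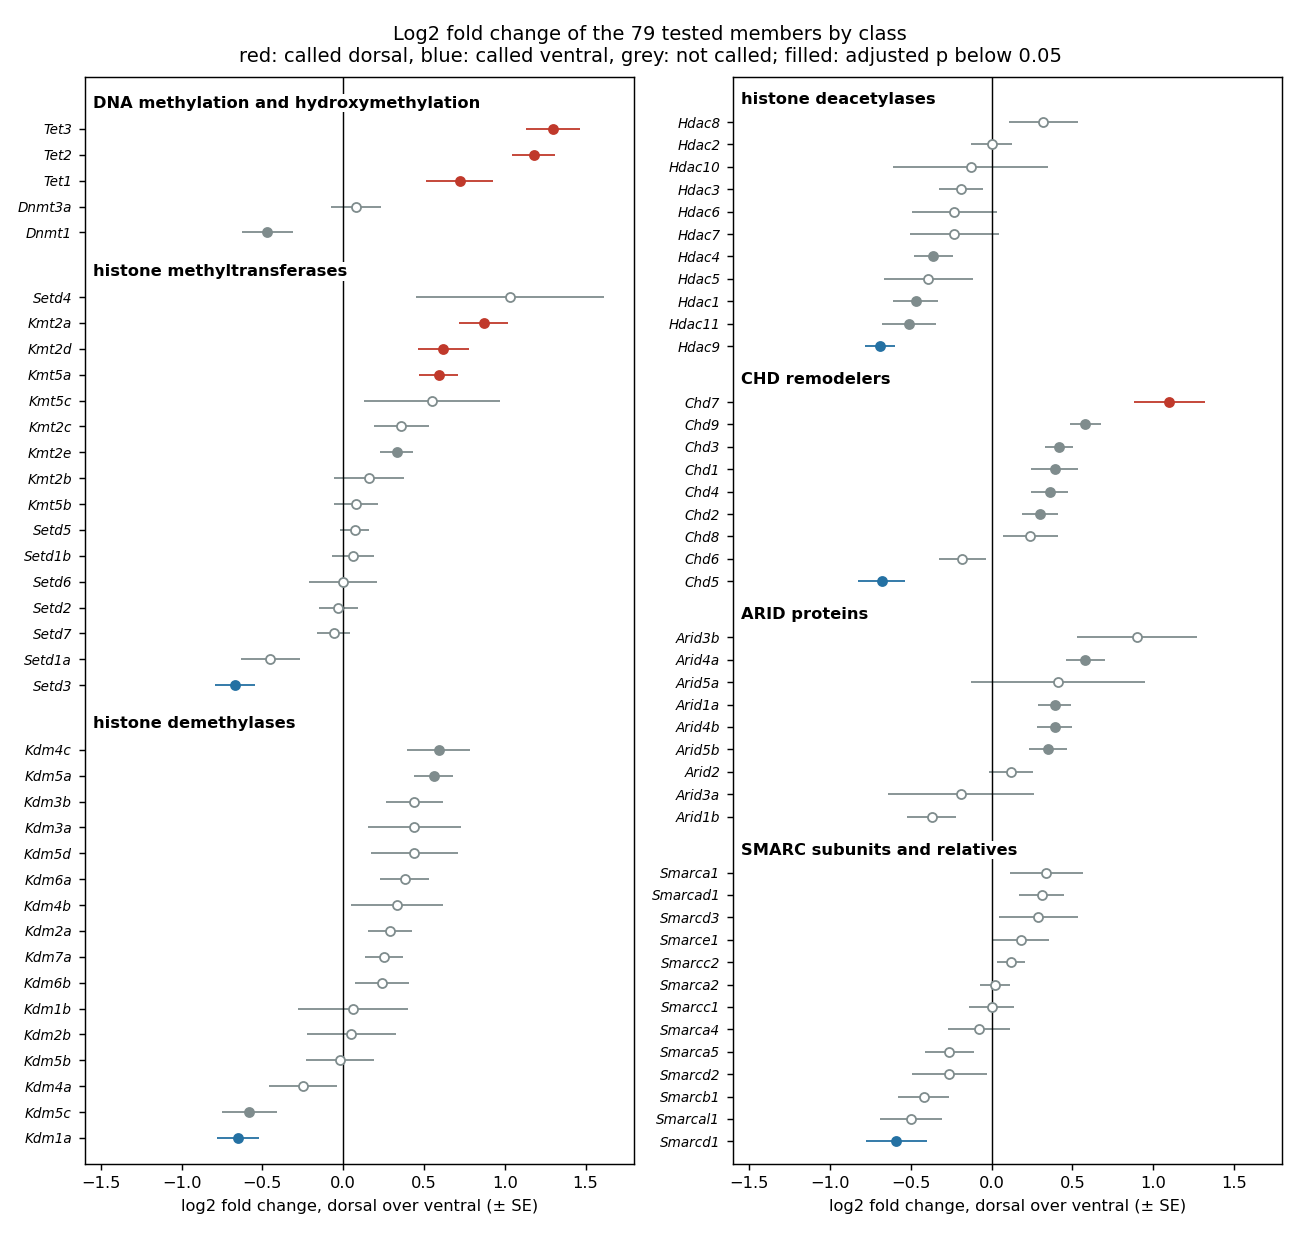
Fitted log2 fold change, dorsal over ventral, with its SE (horizontal axis) for the 79 tested genes, ordered within each class. All 3 Tet genes lie above 0.7, 9 of 11 deacetylases lie under 0, and the SMARC genes lie on both sides of 0 with a single called gene, Smarcd1.

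Of the 9 CHD remodelers 6 passed the adjusted p in the dorsal direction and 1 in the ventral one, without correction for gene length. Of protein-coding genes 15.4% and 16.1% did so. With the correction for GC content and exonic length described below, Chd1 (adjusted p = 0.166), Chd2 (0.644) and Chd4 (0.0836) no longer passed. Chd6 then passed in the ventral direction (-0.48 ± 0.147, adjusted p = 0.024), so the class count depended on that correction. Chd7, whose loss in people causes CHARGE syndrome, was at 35.6, 25, 15.3, 28.4 and 25.4 CPM in dorsal and at 8.86, 10.8, 14.3, 12.6 and 13.6 CPM in the ventral libraries. Dorsal library 3 came close to the ventral range without entering it, and the log2 fold change was 1.10 ± 0.219 (2.14-fold, adjusted p = 0.0024). Chd5, a neuronal NuRD remodeler, was at 40.3, 72.4, 55.5, 65.2 and 61.1 CPM in dorsal and at 87.4, 113, 88.6, 100 and 87.5 CPM in the ventral libraries. All ventral libraries were above all dorsal ones (log2 fold change -0.68 ± 0.145, adjusted p = 0.00346), and without dorsal library 1 the value was -0.57 (adjusted p = 0.00356) and not called. Chd3, another NuRD ATPase and the most abundant CHD gene per kilobase (33.2 CPM per kb), was at 321 ± 21.5 and 240 ± 13.8 CPM (0.42 ± 0.0869, adjusted p = 0.00307). Chd9 was at 151 ± 5.12 and 102 ± 8.93 CPM (0.58 ± 0.095, adjusted p = 0.000681), and its log2 ratio of mean CPM plus 1, 0.57, fell just short of the threshold. It was called in 11 of 27 alternative settings, DESeq2 and total-count scaling among them.

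Of the 9 tested ARID proteins 4 passed the adjusted p of edgeR in the dorsal direction and none in the ventral one, where Arid1b alone had an unadjusted p under 0.05. Of protein-coding genes 15.4% and 16.1% passed in these directions. None was called, although Arid4a was called in the dorsal direction in 14 of 27 alternative settings, edgeR fits with other scalings or filters and DESeq2 among them. Arid4a, a subunit of the Sin3 corepressor, was at 148, 110, 116, 135 and 135 CPM in dorsal and at 92.7, 98.4, 91.3, 74.1 and 75.1 CPM in the ventral libraries. The groups did not overlap, and the log2 fold change was 0.58 ± 0.121 (adjusted p = 0.00303), with a log2 ratio of mean CPM plus 1 of 0.574, just under the threshold. Arid1a and Arid1b, alternative subunits of the BAF form of SWI/SNF named after their values were seen, had log2 fold changes of 0.39 ± 0.102 (adjusted p = 0.0109) and -0.37 ± 0.153 (adjusted p = 0.0773). With the correction for GC content and exonic length described below, Arid1b passed in the ventral direction (-0.53 ± 0.162, adjusted p = 0.022). Arid1a (0.0271) and Arid4a (0.00204) still passed in the dorsal one, whereas Arid4b (adjusted p = 0.403) and Arid5b (0.201) no longer did.

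The SMARC genes, which take in the core of SWI/SNF, the ISWI ATPases and other relatives, had a median log2 fold change of 0 over 13 genes. Smarcd1, a BAF60 subunit, was the only one past the adjusted p. It was at 21.8, 41.6, 39.7, 32.6 and 32.2 CPM in dorsal and 49.7, 63.4, 32.4, 55.6 and 53.9 CPM in the ventral libraries. Ventral library 3 lay inside the dorsal range, and 12.7% of the exonic bases are shared with other annotated genes. The log2 fold change of -0.59 ± 0.189 (adjusted p = 0.0272) had the largest adjusted p among the calls. Without dorsal library 5 it was -0.56 (adjusted p = 0.0644), and the call was also lost without dorsal library 1 or 4 and without ventral library 2, 4 or 5 (adjusted p 0.0478 to 0.0634). The ATPase Smarca2 (Brm) was at 388 ± 27.7 and 384 ± 34.4 CPM (log2 fold change 0.02 ± 0.0913). The ISWI ATPases Smarca5 (164 ± 26.6 and 196 ± 39.3 CPM, adjusted p = 0.187) and Smarca1 (89.6 ± 33.8 and 71.2 ± 18.9 CPM, adjusted p = 0.266) did not pass. With the correction for GC content and exonic length described below, Smarca5 (-0.40, adjusted p = 0.0239), Smarcal1 (-0.55, 0.035) and Smarcb1 (-0.54, 0.0185) passed beside Smarcd1 (-0.49, 0.0213). All were in the ventral direction and under the fold threshold, and no SMARC gene passed in the dorsal one. Smarcc2, a scaffold subunit with the highest level of the class per kilobase (33.1 CPM per kb), was at 192 ± 8.69 and 176 ± 7.28 CPM (adjusted p = 0.29). The summed level of the 9 core subunits was 811 to 892 CPM in dorsal and 794 to 975 CPM in the ventral libraries, so that the ventral range contained the dorsal one.

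These genes are long. Their median genomic span was 59.0 kb and their median exonic length 8.44 kb, against 26.6 and 4.63 kb over all tested protein-coding genes. The 7 genes called in the dorsal direction had a median exonic length of 16.7 kb and the 5 called in the ventral direction one of 6.04 kb. Across the 79 genes the log2 fold change had a Spearman correlation of 0.21 with span and 0.34 with exonic length. Across the 13549 protein-coding genes these were 0.19 and 0.22, all measured in the same 10 libraries. Genes are not independent replicates, and the correlations are descriptions. Of the 27 genes with more than 12 kb of exons, 22 had a log2 fold change above 0 and 6 were called in the dorsal direction, where 20.1% of protein-coding genes in that range were called. Among the 23 genes with less than 6 kb, 11 were above 0 and 1 was called in the dorsal direction, where 9.52% of protein-coding genes were.

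**Figure D3:**
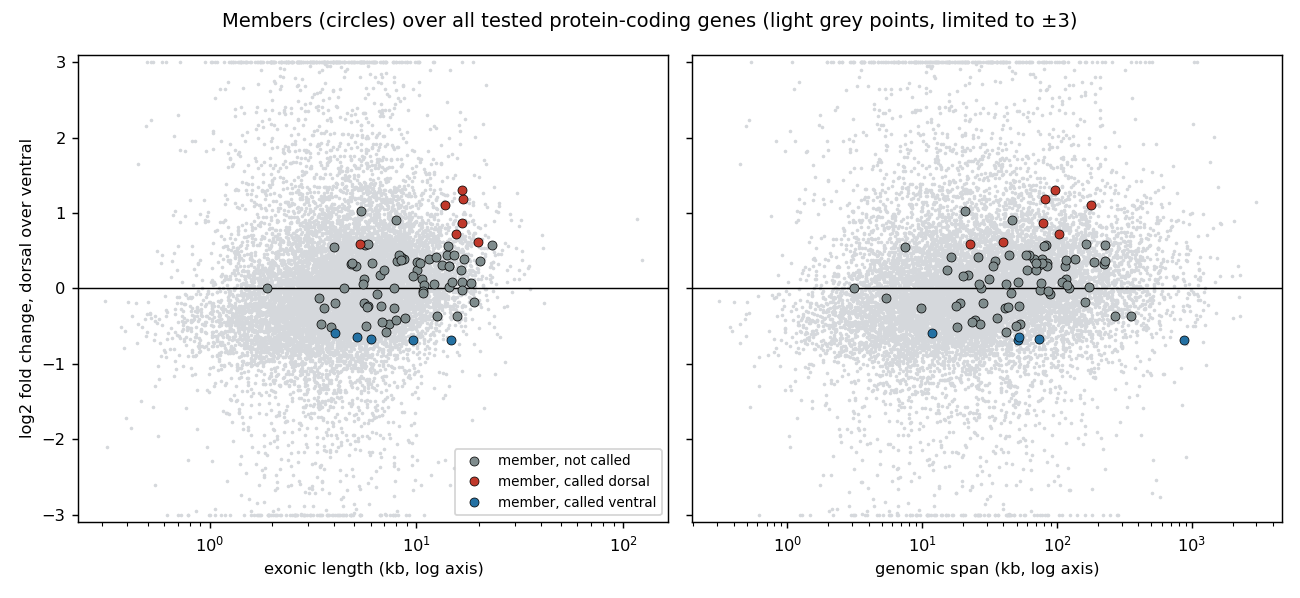
Log2 fold change, dorsal over ventral (vertical axis), against exonic length and genomic span (horizontal log axes, kb) for the 79 tested genes (circles) over all tested protein-coding genes (grey points, limited to ±3). Of the 7 genes called in the dorsal direction 6 have more than 12 kb of exons, and Hdac9, the gene of the longest span, was called in the ventral direction.

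When the trend of each library on GC content and exonic length, fitted over protein-coding genes, was taken out, the correlations over the 79 genes were 0.04 with span and 0.09 with exonic length, and the median log2 fold change was 0.05 (-0.06 over protein-coding genes). Tet2 (0.94 ± 0.141, adjusted p = 0.000445), Tet3 (1.10 ± 0.158, adjusted p = 0.000327), Chd7 (0.89 ± 0.214, adjusted p = 0.00695) and Kmt2a (0.62 ± 0.155, adjusted p = 0.00855) were still called. Kmt2d (0.43 ± 0.0962, adjusted p = 0.00494) and Kmt5a (0.54 ± 0.122, adjusted p = 0.00503) fell under the fold threshold, and Tet1 (0.50 ± 0.224, adjusted p = 0.0975) no longer passed the test. Kmt2e (0.17 ± 0.105, adjusted p = 0.242) did not pass it either. In the ventral direction Hdac9 moved to -0.91 ± 0.0985 (adjusted p = 5.08e-05), Chd5, Kdm1a and Setd3 were called as before, Kdm5c was added at -0.65 ± 0.167 (adjusted p = 0.0103) and Smarcd1 dropped under the fold threshold. With the share of read pairs on no annotated gene as a covariate, whose ranges did not overlap between the groups, Tet2, Kmt2a and Chd7 were the called genes and none was called in the ventral direction. Tet3 (0.96, adjusted p = 0.0668), Hdac9 (-0.62, adjusted p = 0.0508), Kdm1a (-0.73, adjusted p = 0.113) and Chd5 (-0.81, adjusted p = 0.116) missed the adjusted p there with sizable log2 fold changes. Kmt2d came to 0.02 (adjusted p = 0.976).

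**Figure D4:**
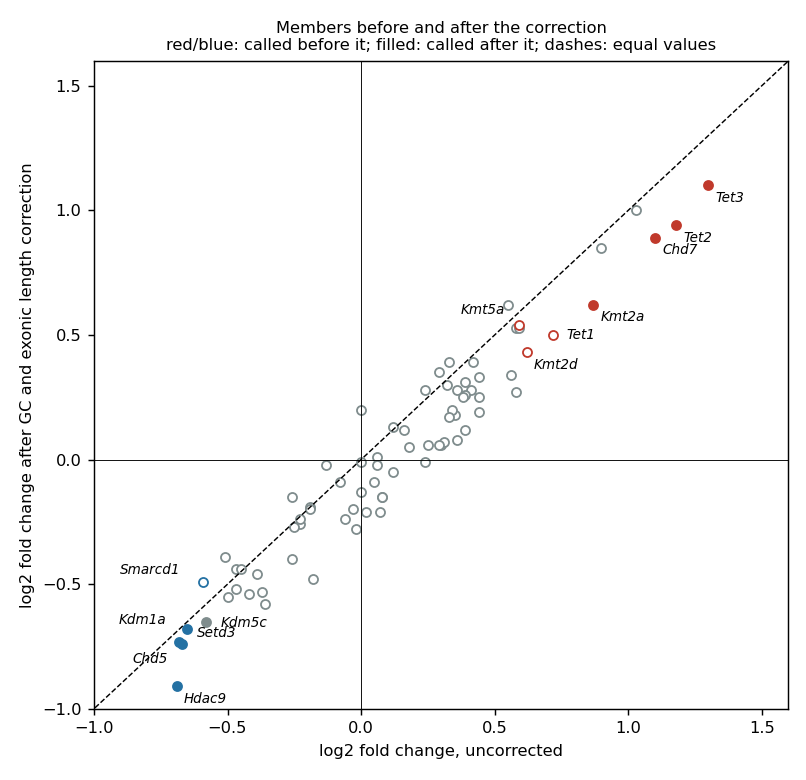
Log2 fold change of the 79 tested genes without (horizontal axis) and with (vertical axis) the correction for GC content and exonic length, with the dashed line at equal values. Tet2, Tet3, Chd7 and Kmt2a stay called (filled red), Kmt2d, Kmt5a and Tet1 do not (open red), and Hdac9 moves away from 0.

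Of 141 tested partners and other chromatin genes outside the symbol rule, 13 were called in the dorsal and 12 in the ventral direction, also under the background shares given above. The 3 largest log2 ratios among those called in the dorsal direction were of Phf19, Dpf3 and Ezh2. Phf19 is a Polycomb partner near the detection floor (1.98 ± 2.09 against 0.127 ± 0.148 CPM). Dpf3 is a histone reader of BAF (9.53 ± 2.25 against 3.34 ± 1.29 CPM, log2 fold change 1.54 ± 0.285), and Ezh2 a methyltransferase of lysine 27 of histone H3 (8.64 ± 2.31 against 3.42 ± 0.758 CPM, 1.31 ± 0.266). Those in the ventral direction were of Cbx2, Kat5 and Ezh1. Cbx2 is a Polycomb reader (0.24 ± 0.187 against 1.46 ± 0.841 CPM) that lay at the level of 3 counts in dorsal libraries. Both Phf19 and Cbx2 passed the filter only through the group where they were high, so nothing is read from their calls. Kat5 is the acetyltransferase Tip60 (11.5 ± 2.75 against 23.2 ± 5.80 CPM, -0.99 ± 0.21). Ezh1 is the relative of Ezh2 found in mature neurons (42.8 ± 9.63 against 74.7 ± 2.98 CPM, -0.81 ± 0.143, adjusted p = 0.0011). Ezh2 and Ezh1 thus moved in opposite directions.

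The 6 genes not tested were Dnmt3b, Dnmt3c, Dnmt3l, Kdm4d, Kdm8 and Arid3c. Their highest level in any library was 1.77 CPM, for Dnmt3l in ventral library 3, where a count of 3 corresponded to 0.244 CPM.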

How the data were processed

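The data were TRAP libraries of dorsal and ventral hippocampus, 5 of each, grouped by the sample labels. The authors amplified RNA by the Ovation RNAseq V2 kit, mapped reads on GRCm38 using STAR 2.5.2b and counted them with HTSeq 0.7.2. The deposited tables hold raw counts for each Ensembl gene. The annotation release and strand setting are not given in the sources used here, so genes sharing exonic bases are uncertain. Symbols, lengths and GC content came from GENCODE vM21, which matched 54809 of 54838 identifiers.

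Counts were tested in R 4.3.3 with edgeR 4.0.16 (TMM, CPM above 1 in at least 2 libraries, quasi-likelihood test, Benjamini-Hochberg adjustment). The SE was taken as the absolute log2 fold change over the root of the F statistic. DESeq2 1.42.0 was an alternative, and mgcv 1.9.3 fitted the trends on GC content and length. The code was tested on simulated data. A count of 3 corresponds to 0.146 to 0.269 CPM, for counting error only, since the reads were amplified and carry no molecular identifiers. No libraries were duplicates (chi-square per degree of freedom 4.36 to 45.1). The members and lists were chosen with earlier results of these data known. Named by rule were every called gene, the untested genes, and the most abundant and smallest adjusted p of each class. The rule also took the 3 most abundant SWI/SNF and ISWI ATPases, the 3 largest called log2 ratios per direction of the related genes, and mossy cell markers. Other named genes were chosen after their values were seen. Among these were Dnmt1, Dnmt3a, Kmt2b, Kmt2c, Kmt2e and the deacetylases other than Hdac2 and Hdac9. Dorsal and ventral libraries drew on the same mice, but the sources used here do not say whether libraries of one number did.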

Additional observations from a re-analysis of the deposited data

Results flagged for a closer look

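In 44 groups of 5 libraries (both groups of each named gene), the gap of the most extreme library to its nearest neighbour was set against the range of the group, a criterion that chance passes in about 1 of 20 groups. It was passed by Hdac9 in dorsal library 2, at 120 CPM where the other dorsal libraries were at 136 to 138 CPM (0.872 of the range), and by Kmt2a in the same library, at 165 CPM where the others were at 246 to 265 CPM (0.816 of the range). Over 44 groups that rate would by itself give about as many passes, so nothing is read from them.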

How the results depend on the processing

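Over 29 alternatives Tet2, Kmt2a and Chd7 were called in every fit made, whereas Smarcd1 was not called in 18 of 27, Kmt5a in 9, Kmt2d in 8 and Tet1 in 7. Without a fold threshold 19 genes were higher in dorsal and 10 in ventral libraries, with 23 related genes higher in dorsal ones. With the GC and exonic length correction 4 were called dorsal, the median log2 fold change was 0.05, the rank correlation with span 0.04 and 8 related genes were called dorsal. The same correction with the replicate block gave 4, 0.04 and 8, with 7 related genes called ventral, and that with span added gave 4, 0.05, 0.01 and 7. With the share of read pairs on no gene as a covariate 3 were called dorsal and 0 ventral, the median was -0.04, 4 and 1 related genes were called, Tet1 turned to -0.12 (adjusted p = 0.861), and over all genes 834 and 339 were called. Using the fold of that covariate fit for the threshold, a choice made after its result had been seen, gave 5 dorsal (Arid4a and Arid5b added) and 0 ventral, a median of -0.04 and 7 and 1 related genes; the main reading keeps the planned threshold. Without genes that share exonic bases 3 were called ventral. Leaving out 1 library at a time gave 7 to 10 dorsal and 3 to 7 ventral calls; 3 came without dorsal library 1, where Chd5 and Smarcd1 were lost. The replicate block alone left the members at 7 and 5 calls and all genes at 2656 and 1672. Same-numbered libraries deviated together at -0.0317 to 0.0695, and 2 of 5 correlated best with their own number, which does not show that the numbers pair the libraries, although both groups drew on the same mice. A separate fit of protein-coding genes alone called 1665 in the dorsal direction, and over all genes 1498 and 897 were called at an adjusted p below 0.01. The causes were not tested.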
